A study of Mus musculus with 6 samples.

Results

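The genes described here are interferon-stimulated genes of the type I interferon pathway, read together with Samd9l and the 2 receptor subunits Ifnar1 and Ifnar2. The list names 39 genes, and its members were the probe sets whose single symbol in the array annotation was on it. This gave 58 probe sets for 37 genes, of 18193 genes with a probe set of their own. RNA was taken from whole choroid plexus of the lateral ventricles of male CD1 mice, an outbred stock, and hybridised to 6 Affymetrix arrays. The older group was 18 months old (3 mice) and the younger 2 months old (3 mice). An array held both lateral plexuses of 1 mouse, so each array stood for 1 animal, and no mouse was treated or genetically altered as far as the labels state. Values are log2 of the normalized intensity, which compares 1 probe set between arrays and not 1 gene with another. Ttr, the transthyretin gene that marks choroid plexus epithelium, had log2 intensities of 14.36, 14.30 and 14.25 at 18 months, against 14.48, 14.48 and 14.46 at 2 months.

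Type I interferons are made by cells that sense viral or misplaced nucleic acid. They bind the paired receptor Ifnar1 and Ifnar2, whose kinases activate STAT proteins, and a complex holding Stat2 and Irf9 then enters the nucleus and binds interferon response elements in the promoters of the stimulated genes. The products block viral entry, translation and replication, amplify sensing (Irf7, Ddx58, Ifih1) or restrain the pathway (Usp18). In the choroid plexus, which makes cerebrospinal fluid and forms a barrier between blood and that fluid, an interferon-dependent programme has been described with age in mice and people.

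The response element was searched as GAAA, any 2 bases and GAAA again, on both strands of RefSeq promoter windows of 300 bases around the annotated start (GRCm38.p6). Of 28 members with a window, 14 (50%) held it, against 1079 of 27025 genes (3.99%). These windows are shown because the element is what ties a promoter to the Stat2 and Irf9 complex. They read 5′ to 3′ on the gene's strand, and capitals mark the element. The Ifit3 window is given whole because it holds 2 copies, and that of Samd9l because it is the member with the largest difference between ages and holds no match to these letters. The others are excerpts of 30 bases around the element, in genes for viral RNA binding (Ifit1), signalling (Stat2) and antiviral defence.
Ifit3 (chr19:34583279-34583578, plus strand): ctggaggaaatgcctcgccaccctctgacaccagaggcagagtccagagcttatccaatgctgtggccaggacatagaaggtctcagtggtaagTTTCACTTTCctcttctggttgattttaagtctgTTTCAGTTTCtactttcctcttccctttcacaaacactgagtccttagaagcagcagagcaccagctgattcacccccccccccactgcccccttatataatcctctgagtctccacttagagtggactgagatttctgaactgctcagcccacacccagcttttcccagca
Samd9l (chr6:3399522-3399821, minus strand): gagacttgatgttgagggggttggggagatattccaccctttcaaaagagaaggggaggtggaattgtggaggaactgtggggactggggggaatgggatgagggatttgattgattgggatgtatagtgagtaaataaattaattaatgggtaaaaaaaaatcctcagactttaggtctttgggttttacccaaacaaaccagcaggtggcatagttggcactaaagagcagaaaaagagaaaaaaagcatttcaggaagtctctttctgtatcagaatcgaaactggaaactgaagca
Ifit1, first copy (chr19:34640775-34640804, plus strand): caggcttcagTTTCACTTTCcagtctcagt
Ifit1, second copy (chr19:34640794-34640823, plus strand): ccagtctcagTTTCAGTTTCtcactgctga
Stat2 (chr10:128270266-128270295, plus strand): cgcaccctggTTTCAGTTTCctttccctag
Bst2 (chr8:71537580-71537609, minus strand): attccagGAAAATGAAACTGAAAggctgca
Ifitm3 (chr7:141010706-141010735, minus strand): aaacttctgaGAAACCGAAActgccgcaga
Oas1a (chr5:120907523-120907552, minus strand): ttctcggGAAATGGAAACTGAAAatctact
Rsad2 (chr12:26456553-26456582, minus strand): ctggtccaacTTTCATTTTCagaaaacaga

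The 2 copies in Ifit1 had the same 10 letters as those in Ifit3, TTTCACTTTC and TTTCAGTTTC. Stat2 carried the second of these. Bst2 and Oas1a held 2 matches that overlapped, marked as 1 stretch of capitals. Among members tested for a difference between ages, the 11 with the element had a median log2 difference of 0.16 (18 months minus 2 months, 8 of them above 0) and the 10 with a window but no match a median of 0.42 (7 above 0). The 10 included Samd9l, which was listed with its difference known, and the receptor subunits Ifnar1 and Ifnar2. The 2 medians are therefore a description, and no relation between the element and age was tested. The sequence TTCNNNGAA, which STAT dimers bind and which was added after the first motif had been read, lay in 8 of the 28 member windows (28.6%) and in 9.55% of genes. Mx1, Mx2, Parp14, Parp9, Ifi27l2a, Oas2, Dhx58, Zbp1, Ifi27, Rtp4 and Usp18 had no window in the table used.

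Of the 37 genes, 28 were bright enough to be tested, with a mean log2 intensity over the 6 arrays of at least 4.92. The other 9 (Ifit2, Usp18, Oas3, Oasl1, Oasl2, Mx1, Mx2, Dhx58 and Trim30a) lay below that level, and in all 9 the mean at 18 months and the mean at 2 months were no higher than the brightest of 27 bacterial control probe sets, 4.51. The median of these controls was 3.03. Genes called at the level of the bacterial controls had both means no higher than the brightest control, and could lie above the median one. The probe set for Isg15 also carries the symbol of another gene, and Ifi44 had none, so neither has a value here. In whole tissue, a change in RNA per cell and a change in the number of cells that carry it cannot be told apart.

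Samd9l was higher at 18 months in all 3 mice, and Irf9, Ifit3, Lgals3bp and Ifi27 lay higher by smaller amounts, while Ifit1, Stat2, Irf7 and the receptor genes overlapped between ages. No member passed an adjusted p of 0.05 in the limma fit across 12681 genes, and neither did any other gene in either direction (0% of genes tested higher and 0% lower). At an unadjusted p below 0.05, 3 of the 28 tested members were higher at 18 months, Samd9l, Irf9 and Ifit3 (10.7%, against 4.02% of all genes tested). At that level 0 members were lower, against 3.03% of all genes. The values of the 3 older mice lay wholly above those of the 3 younger in 5 members, the same 3 with Lgals3bp and Ifi27 (17.9%, against 7.06% of all genes), and wholly below them in 0 (against 6.25%). Of the 28, 18 had a difference above 0 (64.3%, against 50.4%). The median difference was 0.15 over the members, against 0.00 over all genes tested. Because Samd9l was listed with its difference known, its part in these counts says nothing about the members. Without it, 2 of 27 were higher at an unadjusted p below 0.05, 4 of 27 had separate ranges, 17 of 27 had a difference above 0, and the median was 0.15. Samd9l and Ifit1 had 2-month means under the filter, and Irf7 an 18-month mean under it, so these 3 were tested only through the age at which they were brighter.

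**Figure D1:**
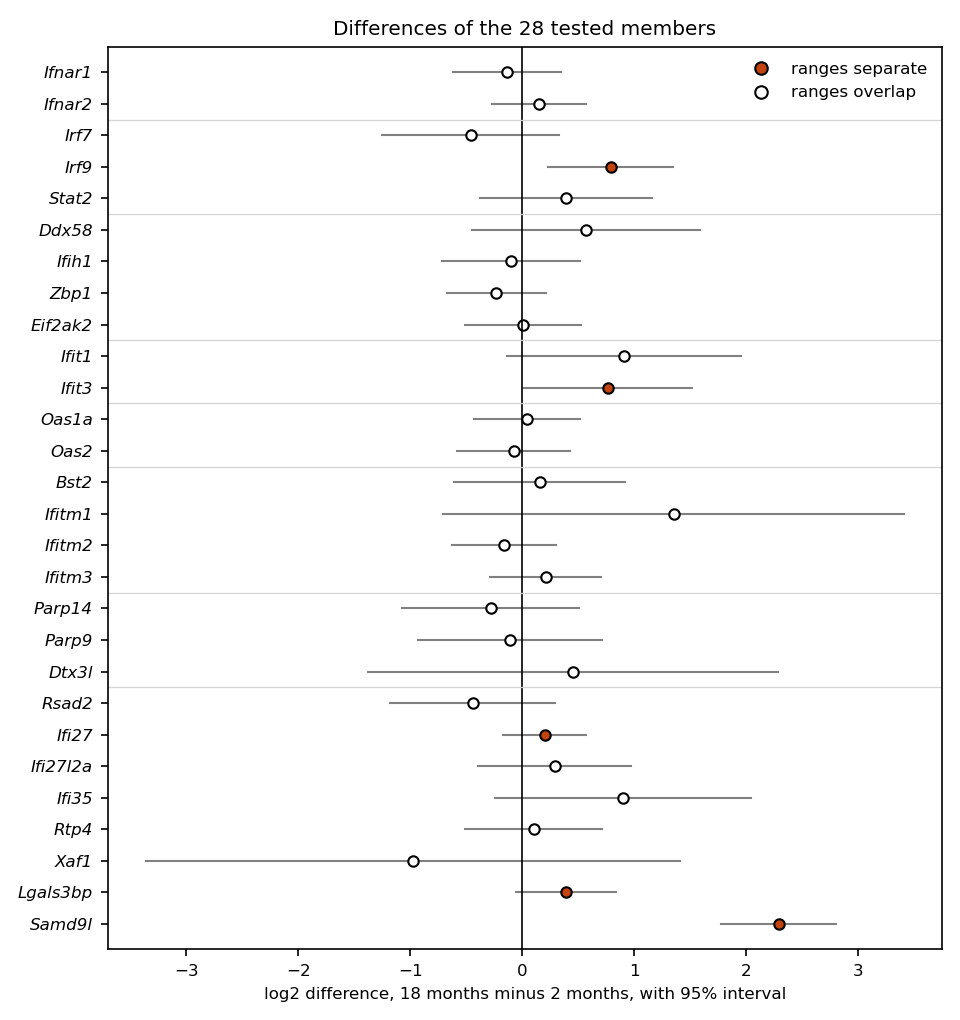
Log2 difference between ages (18 months minus 2 months) of each of the 28 tested members, ordered by role, with its 95% confidence interval from the limma fit (3 mice per age). Filled points mark the 5 members whose values did not overlap between ages, and Samd9l at 2.29 stands farthest from 0.

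Samd9l, an antiviral and growth-restraining gene of the Samd9 family, had the largest difference of the members. The list was drawn up with earlier results of these data known, this difference among them. Its log2 intensities were 6.92, 7.15 and 6.93 at 18 months, against 4.96, 4.83 and 4.34 at 2 months. The older mice lay close together and above the younger, of which 1 was under the brightest bacterial control. The means were 7.00 ± 0.13 at 18 months and 4.71 ± 0.33 at 2 months (SD, n = 3 each). The difference was 2.29 (SE 0.22, 95% interval 1.78 to 2.81, limma adjusted p = 0.0540), or 4.89-fold. The 2-month mean was under the filter of 4.92, so Samd9l entered the test through its 18-month values. It has a single probe set, so no second reading of the gene was at hand. It passed an adjusted p of 0.05 when arrays were centred on their median (adjusted p = 0.0497, as 1 of 4 genes called higher, 0.0315% of those tested). It also passed when a gene's probe sets were averaged (adjusted p = 0.0438, 1 of 5 genes, 0.0425%) or their median taken (adjusted p = 0.0413, 1 of 4 genes, 0.0341%), which left its own difference at 2.29. The difference was 2.11 to 2.41 when each mouse was left out in turn, with adjusted p between 0.225 and 0.368 on the smaller sample. With the macrophage marker level of each array as a covariate it was 2.59 (adjusted p = 0.711), and with the neuron marker level it was 2.30 (adjusted p = 0.139).

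**Figure D2:**
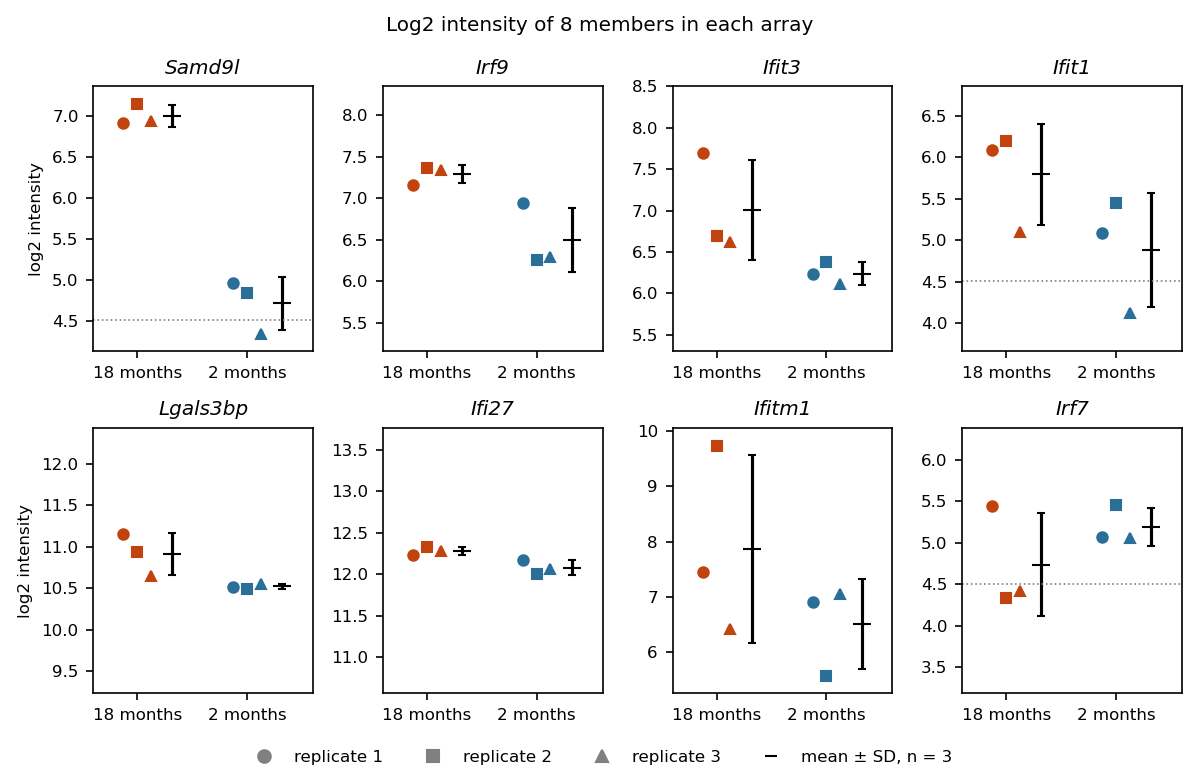
Log2 intensity of 8 members in each array, with 18 months left of 2 months; symbols stand for replicates, bars for mean ± SD (n = 3), and the dotted line for the brightest bacterial control (4.51) where it falls in range. Samd9l, Irf9, Ifit3, Lgals3bp and Ifi27 separate by age, and Ifit1, Ifitm1 and Irf7 overlap.

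The transcription factors of the pathway differed among themselves. Irf9, the DNA-binding part of the complex that carries the type I signal, had log2 intensities of 7.17, 7.36 and 7.34 at 18 months, against 6.95, 6.25 and 6.30 at 2 months. The older mice were tightly grouped and 1 younger mouse came close to them. Its difference of 0.79 (SE 0.23) was 1.73-fold and had a limma adjusted p of 0.613. Stat2, its partner, had 6.51, 7.02 and 6.17 at 18 months, against 6.61, 6.24 and 5.67 at 2 months. These ranges overlapped, and the difference was 0.39 (SE 0.32, adjusted p = 0.839). A second Stat2 probe set, above the filter but dimmer, gave -0.01. Irf7, the factor that amplifies interferon production and is itself a standard marker of the response, had 5.45, 4.34 and 4.42 at 18 months, against 5.07, 5.46 and 5.05 at 2 months. Its difference was below 0, at -0.46 (SE 0.33, adjusted p = 0.821), and 2 of the 3 older mice were under the brightest bacterial control.

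The receptor subunits were close to level between ages. Ifnar1 had log2 intensities of 7.17, 6.96 and 7.18 at 18 months, against 6.95, 7.52 and 7.25 at 2 months, a difference of -0.14 (SE 0.20). Ifnar2 had 11.52, 11.23 and 11.14 at 18 months, against 11.08, 11.18 and 11.19 at 2 months, a difference of 0.15 (SE 0.17). The 95% intervals ran from -0.62 to 0.35 for Ifnar1 and from -0.27 to 0.57 for Ifnar2. Usp18, the protease that binds the receptor and damps its signal, had 3.30, 4.13 and 4.49 at 18 months, against 3.19, 2.71 and 2.27 at 2 months. The older mice were all above the younger, but every value was under 4.51, so no difference is given.

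The IFIT family, which binds viral RNA and blocks its translation, had the highest median difference, 0.84, of the roles with more than 1 tested member. That median rested on Ifit3 and Ifit1 alone. Ifit1 passed the filter only through its brighter 18-month values, and Ifit2 was too dim to be tested. Ifit3 had log2 intensities of 7.70, 6.69 and 6.62 at 18 months, against 6.23, 6.38 and 6.11 at 2 months. The older mice were all above the younger, with replicate 1 standing apart from the other two older mice. The difference was 0.76 (SE 0.31, limma adjusted p = 0.708), or 1.70-fold, and was 0.41 without 18-month replicate 1. A near-identical neighbour, Ifit3b, may be read by the same probes. Ifit1 had 6.08, 6.20 and 5.10 at 18 months, against 5.08, 5.44 and 4.12 at 2 months. Replicates 1 and 2 of the older mice were above every younger mouse and replicate 3 was among them, so the ranges overlapped. Its difference was 0.91 (SE 0.44, adjusted p = 0.746), and was 0.53 without 2-month replicate 3 and 1.26 without 18-month replicate 3. Ifit2 had 3.95, 4.76 and 4.50 at 18 months, against 3.78, 4.04 and 5.10 at 2 months, with both means at the level of the bacterial controls.

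Sensors of foreign or misplaced nucleic acid showed no shared direction. Ddx58, which encodes the RNA sensor RIG-I, had log2 intensities of 7.50, 7.42 and 6.83 at 18 months, against 6.36, 7.61 and 6.08 at 2 months, a difference of 0.57 (SE 0.43). Zbp1, a sensor of Z-form nucleic acid that can trigger cell death, had 5.14, 4.94 and 4.77 at 18 months, against 5.13, 5.37 and 5.03 at 2 months, a difference of -0.23 (SE 0.19). Ifih1, the RNA sensor MDA5, differed by -0.10 (SE 0.26) and Eif2ak2, the kinase PKR that halts translation, by 0.01 (SE 0.22). Adjusted p was 0.830 or more for these 4 genes. Dhx58, the third of the RIG-I family, averaged 4.17 at 18 months and 3.71 at 2 months, at the level of the bacterial controls.

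The 2-5A synthetases and Mx GTPases gave little signal. Oas1a and Oas2, which make the activator of an RNA-degrading enzyme, were the 2 of 5 family members above the filter. They differed by 0.04 (SE 0.20) and -0.08 (SE 0.21). Oasl2, a relative that acts on RNA sensing, had log2 intensities of 2.81, 3.33 and 2.95 at 18 months, against 2.63, 2.81 and 2.78 at 2 months. Oasl1 had 3.20, 2.84 and 3.04 at 18 months, against 3.48, 3.44 and 3.27 at 2 months. Mx2 had 2.62, 2.65 and 2.50 at 18 months, against 2.81, 2.91 and 2.77 at 2 months. All 3 lay at the level of the bacterial controls. The older mice were wholly below the younger in Oasl1 and Mx2 and above them in Oasl2, where the nearest values are equal as printed. Oas3 averaged 4.21 at 18 months and 3.97 at 2 months, and Mx1 averaged 3.79 at 18 months and 3.62 at 2 months, also at that level and with overlapping ranges.

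Of the 4 membrane proteins that hold viruses back, Ifitm1 had the difference with the largest error. Ifitm3, which blocks fusion in endosomes, had log2 intensities of 11.46, 11.55 and 11.03 at 18 months, against 11.16, 11.29 and 10.96 at 2 months, a difference of 0.21 (SE 0.21). Bst2, or tetherin, which tethers budding virus, had 9.69, 10.12 and 8.88 at 18 months, against 9.35, 9.42 and 9.45 at 2 months. The younger mice lay close together while the older ones lay on both sides of them, and the difference was 0.16 (SE 0.32). Ifitm2 differed by -0.17 (SE 0.20). Ifitm1 had 7.45, 9.74 and 6.41 at 18 months, against 6.91, 5.57 and 7.06 at 2 months. Its difference of 1.35 (SE 0.86, adjusted p = 0.802) was the second highest of the members and rested on 18-month replicate 2, without which it was 0.42. In the same arrays Cd8a, a marker of cytotoxic T cells, had 6.90, 8.55 and 5.11 at 18 months, against 5.16, 5.26 and 5.33 at 2 months. Of the 3 tested lymphocyte markers the others were below 0, with Cd4, of helper T cells, at -0.13 (SE 0.16) and Ighm, of B cells, at -0.58 (SE 0.42). The part of such cells in the Ifitm1 values was not tested, and Cd3d, Cd3e and Cd3g, the defining T-cell markers, were at the level of the bacterial controls at both ages.

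Among the other effectors, Lgals3bp, a secreted glycoprotein, had log2 intensities of 11.15, 10.94 and 10.64 at 18 months, against 10.52, 10.50 and 10.55 at 2 months. The older mice were all above the younger, replicate 3 only just. The difference was 0.39 (SE 0.19, limma adjusted p = 0.746), or 1.31-fold. Ifi27, a small membrane protein gene, had 12.227, 12.333 and 12.287 at 18 months, against 12.178, 12.005 and 12.061 at 2 months, a difference of 0.20 (SE 0.15, adjusted p = 0.833). Its second probe set, also far above the filter, gave -0.08 with overlapping ranges. Ifi27l2a differed by 0.29 (SE 0.29) and Rtp4 by 0.10 (SE 0.26). Rsad2, or viperin, which makes a chain-ending nucleotide, had 7.20, 7.88 and 7.76 at 18 months, against 7.52, 8.44 and 8.21 at 2 months. Its difference was -0.44 (SE 0.31), and all 3 of its probe sets were below 0.

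The remaining effectors lay on both sides of 0. Ifi35 had log2 intensities of 10.33, 9.50 and 9.56 at 18 months, against 7.87, 9.51 and 9.33 at 2 months, a difference of 0.90 (SE 0.48) in which 2-month replicate 1 was the low value. Its other probe sets gave 0.47 and -1.42. Xaf1, a promoter of cell death, had 6.79, 7.55 and 6.08 at 18 months, against 6.68, 6.50 and 10.17 at 2 months. Its difference of -0.98 (SE 1.00) rested on the last of these mice, without which it was 0.21. Dtx3l, a ubiquitin ligase that works in a complex with Parp9, ran from 5.71 to 8.04 at 18 months, against 5.38 to 7.67 at 2 months, with high and low mice at both ages. It differed by 0.45 (SE 0.76), Parp9 by -0.11 (SE 0.34) and Parp14 by -0.28 (SE 0.33). Adjusted p was 0.773 or more for each of these 5 genes. Trim30a, a regulator of inflammatory signalling, averaged 3.87 at 18 months and 3.40 at 2 months, at the level of the bacterial controls.

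Probe sets of 1 gene did not always share a direction. Of the 37 members, 22 had 1 probe set and 15 had several, and in 10 of the 15 at least 1 probe set was above 0 and at least 1 below. In Ddx58, Xaf1 and Zbp1 this came only through a probe set below the filter, and in Dhx58 all probe sets were below it. The same share over all genes with several probe sets was not taken, so the 10 have no reference. Over the 58 probe sets, 33 were above 0 (against 48.3% of all probe sets) and 25 below, with a median difference of 0.10, against -0.01 over all probe sets. At an unadjusted p below 0.05, 4 of the 58 were higher at 18 months, those of Samd9l, Irf9, Ifit3 and Usp18 (the last under the brightest bacterial control in every array), against 3.08% of all probe sets, and 0 were lower, against 2.6%.

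**Figure D3:**
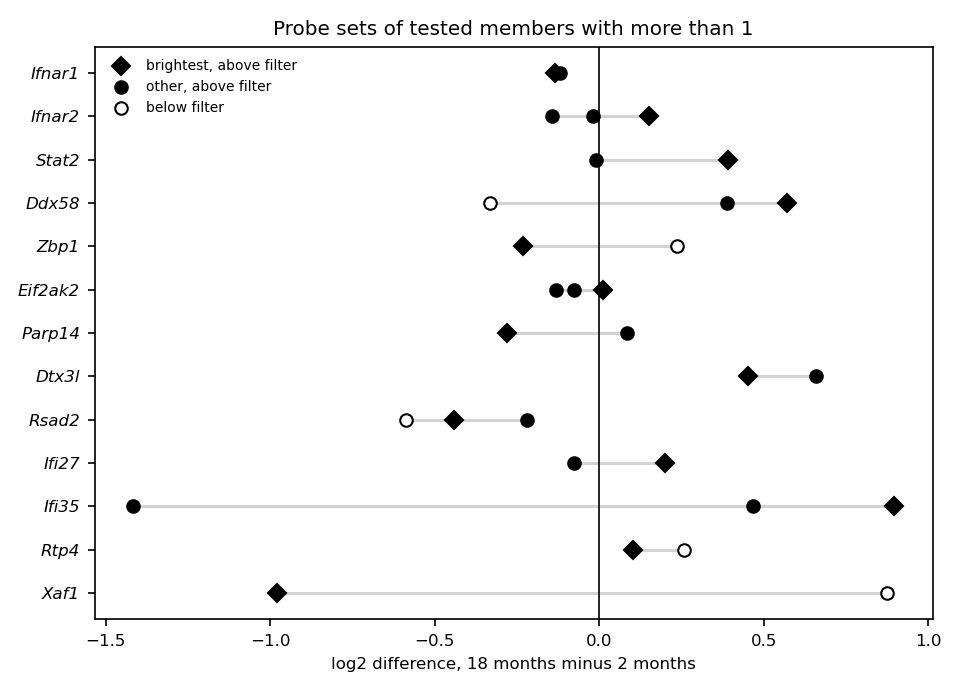
Log2 difference between ages (18 months minus 2 months) of every probe set of the 13 tested members with more than 1; diamonds mark the brightest probe set, which stood for the gene, and open circles those below the filter. The readings of Ifi35 run from -1.42 to 0.90 and those of Xaf1 from -0.98 to 0.87, while both Ifnar1 readings lie between -0.14 and -0.12.

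Array by array, the members did not shift as a block in all 3 older mice. Each member was centred on its mean over the 6 arrays, and the centred values were averaged over the 28 members. The averages were 0.25, 0.26 and -0.13 for 18-month replicates 1, 2 and 3, against -0.13, -0.11 and -0.13 at 2 months. Replicate 3 of the older mice therefore sat at the level of the younger ones. Without Samd9l the averages were 0.22, 0.22 and -0.18 at 18 months, against -0.11, -0.08 and -0.08 at 2 months. The older replicates 1, 2 and 3 were above every younger mouse in 15, 12 and 6 members, against 28.6%, 24.8% and 26.7% of all genes tested. They were below every younger mouse in 2, 5 and 6 members, against 21.7%, 27.2% and 28.2% of all genes. Replicate 3 was the highest of the 6 arrays for 0 members, while replicates 1 and 2 were the highest for 8 and 9. Samd9l, Irf9 and Ifit3 were above every younger mouse in this animal too, and Bst2, Ifit1, Ifitm3 and Ifitm1 were not.

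**Figure D4:**
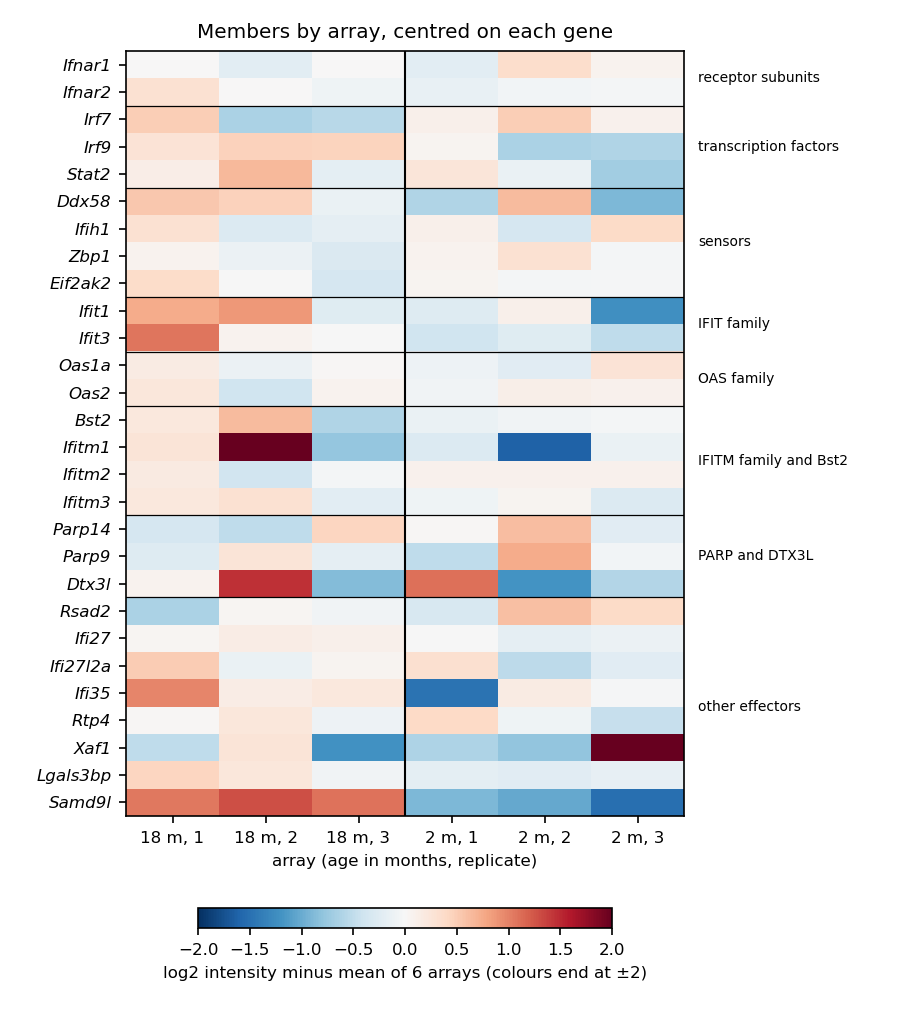
Log2 intensity of the 28 tested members in each array minus the member's mean over the 6 arrays, with the 3 mice aged 18 months on the left and the 3 aged 2 months on the right, ordered by role; red is higher, blue lower, and colours end at ±2. Samd9l is the row with the sharpest change between ages, and 18-month replicate 3 holds none of the members' highest values.

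Without 18-month replicate 3, 6 members had an unadjusted p below 0.05 and were higher at 18 months: Samd9l, Irf9, Ifit3, Ifit1, Ifitm1 and Lgals3bp (against 3.79% of all genes). The count with separate ranges was then 10 of 28 (against 12.7% of all genes). Without 2-month replicate 2 it was 8 (against 12.9%). These 2 arrays lay at the ends of the first principal component over all genes, and without both it was 12 (against 21.2%). Leaving out any other mouse gave 5 or 6 (against 11.6% to 12.1%). Without 18-month replicate 1, 3 members were separate and lower (against 13.1%). Leaving out a mouse can only keep or add separate ranges. Replicate 3 was the older mouse in which the members were lowest, so the counts without it are a description. The spread within an age was wider for the members than for genes at large, with a median pooled SD of 0.36, against 0.31 over all genes tested. The members were also dimmer, with median means of 7.05 at 18 months and 6.60 at 2 months, against 7.77 and 7.74 over all genes. The part of this lower level in the wider spread was not tested.

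Markers of other cells moved between the same arrays. Neuron markers, averaged over 11 tested genes in the same way, were at -0.78, -0.08 and 0.91 at 18 months, against -0.24, -0.69 and 0.88 at 2 months. Of 21 macrophage and microglia markers, 17 were tested and 5 had an unadjusted p below 0.05 and were higher at 18 months (against 4.02% of all genes), and 2 were at the level of the bacterial controls. Their summed level ran from 12.83 to 13.51 on the log2 scale at 18 months and from 12.46 to 12.97 at 2 months. Their averages were 0.38, -0.02 and 0.36 at 18 months, against -0.18, -0.58 and 0.05 at 2 months. Of 12 lymphocyte markers, 3 were tested, with averages of 0.22, 0.67 and -0.44 at 18 months, against -0.37, 0.18 and -0.25 at 2 months, and 6 were at the level of the bacterial controls. Plasmacytoid dendritic cells are the main makers of type I interferon in blood and lymphoid organs. Of 7 markers 5 were tested, 1 above 0 and 4 below, with a median difference of -0.22. Siglech, a surface receptor of these cells, differed by -0.22 (SE 0.29) and Ccr9 by 0.14 (SE 0.33). Averages of the 5 were 0.05, -0.22 and -0.09 at 18 months, against 0.23, -0.16 and 0.18 at 2 months. Of 7 pituitary markers, 3 were tested and 2 were at the level of the bacterial controls. Averages of the tested ones were 1.55, 1.17 and 0.42 at 18 months, against -1.11, -0.72 and -1.31 at 2 months. They were led by growth hormone (Gh) at 10.40, 10.18 and 9.08 at 18 months, against 4.65, 5.63 and 4.44 at 2 months. The 2-month mean of Gh was under the filter, so Gh was tested only through its 18-month values. Of the other tested pituitary markers, Pomc differed by 1.34 (SE 0.42) and Lhb by -0.04 (SE 0.27). Ependymal markers, genes of ciliated cells, were tested in 9 of 10, and all 9 were below 0, 2 of them at an unadjusted p below 0.05 (against 3.03% of all genes). Fam183b, 1 of these 2, had an 18-month mean under the filter, so it was tested only through its 2-month values. Averages of the 9 markers were -0.53, -0.36 and -0.10 at 18 months, against 0.27, 0.04 and 0.68 at 2 months, every older mouse below every younger one. Stromal and mural markers were below 0 in 6 of 7, 1 of them at that level, with averages of -0.30, -0.41 and 0.14 at 18 months, against 0.06, 0.24 and 0.27 at 2 months. Oligodendrocyte markers were above 0 in 8 of 9, 2 of them at that level, with averages of -0.45, 0.29 and 1.02 at 18 months, against -0.03, -1.36 and 0.53 at 2 months. The median difference of the list was 0.23. Of 2 myelin protein genes, Mbp differed by 0.02 (SE 0.57) and Mog by 1.75 (SE 0.33, limma adjusted p = 0.328). With the neuron or the macrophage level as a covariate, Irf9 differed by 0.79 and 0.76, Ifit3 by 0.77 and 0.68, and Ifit1 by 0.93 and 1.77, with adjusted p of 0.514 or more. The part of lymphocytes and of pituitary, ependymal, stromal and oligodendrocyte cells in the members' values was not tested.

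Other genes of the interferon system were read for comparison. Of 62 further interferon-stimulated genes, 36 were tested, and 1 was higher and 0 lower at an unadjusted p below 0.05 (against 4.02% and 3.03% of all genes), with a median difference of -0.02. Ly6e, a membrane protein that limits viral fusion, was that gene, at 11.83, 11.97 and 11.87 at 18 months, against 11.07, 11.05 and 11.26 at 2 months, a difference of 0.76 (SE 0.16, limma adjusted p = 0.432). Tnfsf10, the death ligand TRAIL, differed by 0.51 (SE 0.22), Plscr2 by -0.82 (SE 0.35) and Parp12 by -0.59 (SE 0.26).

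Genes that answer mainly to interferon-gamma, made by T and natural killer cells, were read next. Of 22 listed, 13 were tested, and 8 were higher and 1 lower at an unadjusted p below 0.05 (against 4.02% and 3.03% of all genes), with a median difference of 1.04. Irgm2, 1 of the 8, had a 2-month mean under the filter, so it was tested only through its 18-month values. Another of the 8, H2-Aa, had the smallest p of all genes tested. The list was chosen with earlier results of these data known, so these counts are a description. The MHC class II genes H2-Aa and H2-Ab1 differed by 3.18 (SE 0.24, adjusted p = 0.0540) and 2.61 (SE 0.41, adjusted p = 0.228), and their chaperone Cd74 by 2.41 (SE 0.41, adjusted p = 0.273). Psmb8, an immunoproteasome subunit, had 7.24, 6.59 and 6.70 at 18 months, against 5.35, 5.87 and 5.57 at 2 months, a difference of 1.25 (SE 0.24, adjusted p = 0.369). The lower gene was the lysosomal reductase Ifi30, at -0.59 (SE 0.24), named after its values were seen. The other 3 genes below 0 were the class II gene H2-Eb1 (-0.23, SE 0.25), the transcription factor Irf1 (-0.01, SE 0.33) and the GTPase Irgm1 (-0.12, SE 0.44). Averaged as above, the list was at 0.78, 0.62 and 0.30 at 18 months, against -0.41, -0.67 and -0.62 at 2 months, so that all 3 older mice were above the younger. MHC class II genes are also markers of antigen-presenting cells, whose markers are given above.

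**Figure D5:**
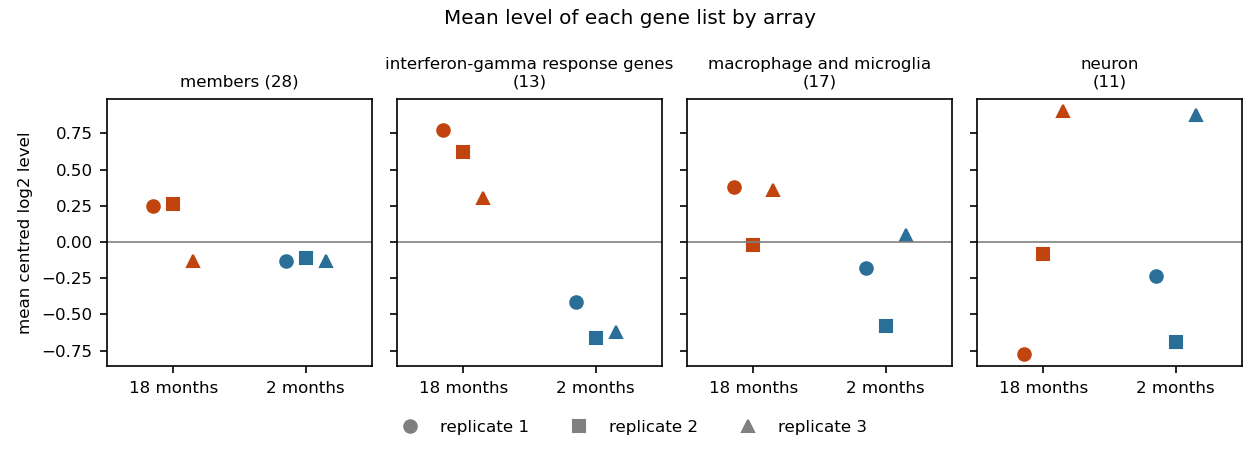
Mean log2 level of 4 gene lists in each array, each gene centred on its mean over the 6 arrays, with 18 months left of 2 months and symbols for replicates; the number of tested genes stands above each panel. For the members, 18-month replicate 3 (-0.13) lies with the 2-month arrays, while for interferon-gamma response genes all 3 older mice lie above the younger ones.

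Genes of the steps upstream of the members were read last. Of 20 interferon ligand genes 10 had a probe set and 2 were tested, Ifna5 (-0.21, SE 0.17) and Ifna1 (-0.05, SE 0.22). The other 8, among them Ifnb1 and Ifng, were at the level of the bacterial controls. Of 14 tested genes for sensors and interferon induction, 1 was higher and 1 lower at an unadjusted p below 0.05, against 4.02% and 3.03% of all genes. These were the ubiquitin ligase gene Traf6 (0.71, SE 0.24) and the adaptor gene Ticam1 (-0.92, SE 0.34). Sting1, the adaptor for cytosolic DNA sensing, differed by 1.20 (SE 0.52), and Myd88, an adaptor of Toll-like receptors, by -0.58 (SE 0.37). Of 13 tested signal transduction genes 0 were higher and 0 lower at an unadjusted p below 0.05, against 4.02% and 3.03% of all genes. Of the 13, 9 had a difference above 0 and 4 below, with a median of 0.19. Among these were the receptor kinase gene Jak1 (0.67, SE 0.71), Stat3 (0.21, SE 0.20), the nuclear importer Kpna1 (-0.36, SE 0.27) and the coactivator Crebbp (-0.30, SE 0.27). Of 14 tested negative regulators 0 were higher and 0 lower at an unadjusted p below 0.05, against the same 4.02% and 3.03%. Of the 14, 6 had a difference above 0 and 8 below, with a median of -0.05. They included Socs3 (1.57, SE 0.84), Nlrx1 (-0.51, SE 0.25) and the phosphatases Ptpn6 (-0.45, SE 0.23) and Ptpn2 (-0.95, SE 0.67).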

How the data were processed

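The authors deposited a single table of intensities, already normalized, for 45101 probe sets on 6 arrays (18 months, 3 mice; 2 months, 3 mice). RMA is the tool named, per the submitters' processing notes, and its version was not given in the sources used here; it removes background, equalises arrays and combines the probes of a set. Per the labels' protocols, RNA was amplified before biotin labelling, which can distort dim transcripts. The deposited intensities ran from 2.47 to 26820.7 and so were linear; their log2 was taken.

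Gene names came from the array's platform annotation, in which 34945 probe sets carried 1 symbol. The brightest probe set stood for a gene, and 12681 of 18193 genes reached the 40th percentile of non-control probe sets. The difference, 18 months minus 2 months, was fitted in R 4.3.3 with limma 3.58.1 (moderated two-sided test, 6.61 degrees of freedom, no covariate). Benjamini-Hochberg adjustment ran over all genes tested, and the threshold was 0.05. Errors are SE of the fit, and SD are over 3 mice. The test was first tested on simulated data. Precision is limited by having 3 arrays per age.

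The members, gene lists and alternatives were chosen with earlier results of these data known. The rule named every array's value for 16 members fixed by name and for any other with an unadjusted p below 0.05 or separate ranges, up to 4 genes of smallest p in each pathway list, and up to 2 markers of a cell list. Values given for other members were added. Replicate numbers named samples only. Alternatives were the filter, the summary of probe sets, the normalization, a pseudocount of 16, leaving out each mouse, the replicate block, marker covariates, array weights and an ordinary 2-sample test.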

Additional observations from a re-analysis of the deposited data

How the results depend on the processing

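Over 19 alternatives, 18 of them planned, 489 of 520 differences of member genes kept their direction and their side of the threshold, and 15 of the 28 members had one sign in every alternative in which they were tested. Of these 15, Samd9l, Ifit1, Irf7 and Parp14 were tested in 18 alternatives and Zbp1 in 16, the others in all 19. Both counts are partly fixed in advance. Changing the filter, the replicate block and the ordinary 2-sample test leave a gene's difference as it was. The mean and median of probe sets do the same for members with 1 probe set. Members other than Samd9l had adjusted p of 0.514 or more throughout, so their side of the threshold hardly could change. Samd9l ran from 1.77 (pseudocount of 16) to 2.59 (macrophage covariate). It passed the threshold with the mean of a gene's probe sets (2.29, adjusted p = 0.0438), with their median (2.29, adjusted p = 0.0413) and with arrays centred on their median (2.28, adjusted p = 0.0497), so that 1 member was then called, against 0 as reported. Over all alternatives its adjusted p ran from 0.0413 to 0.711. Under the 60th percentile filter Samd9l was too dim to be tested. Calls among all genes, 0 higher and 0 lower as reported, were 3 higher and 1 lower with the 60th percentile filter, 5 higher and 0 lower with the mean of probe sets and 4 higher and 0 lower with their median. They were 4 higher and 1 lower with median centring, 3 higher and 1 lower with array weights, and 1 higher and 0 lower with the neuron covariate.

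Some differences changed sign. Ifi35, at 0.90 as reported, was at -0.018 with the mean of probe sets and -0.68 with their median, Ifnar2 at -0.0035 and -0.16, and Eif2ak2 at -0.066 and -0.077. Eif2ak2 was at -0.0037 with median centring. With the macrophage covariate Eif2ak2 was at -0.032, Oas1a at -0.29, Ifi27l2a at -0.10 and Parp9 at 0.56, and with array weights Parp9 was at 0.053. Probe sets that disagree make the first 3; the cause of the rest was not tested.

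Leaving out each mouse in turn gave ranges that crossed 0 for Oas1a (-0.064 to 0.19), Oas2 (-0.21 to 0.11), Eif2ak2 (-0.17 to 0.18), Bst2 (-0.12 to 0.50), Ifih1 (-0.29 to 0.069), Dtx3l (-0.17 to 1.11), Parp9 (-0.40 to 0.23), Ifnar1 (-0.28 to 0.0037), Rtp4 (-0.10 to 0.33) and Xaf1 (-1.62 to 0.21). The number of members at an unadjusted p below 0.05 then ran from 2 to 6 higher and from 0 to 1 lower, and the number with separate ranges from 5 to 10 higher and from 0 to 3 lower. Without both arrays at the ends of the first component, an alternative added after seeing the data, 12 were separate and higher and 1 lower, Oas1a was at -0.068 and Parp9 at 0.29. Without a filter 2 members were separate and lower. Deviations of same-numbered samples from their group means correlated at -0.015, 0.019 and 0.168, so the replicate numbers were not taken as pairs. With the replicate number as a block, Samd9l was at 2.29 (adjusted p = 0.474) and 0 members were called. With 3 mice per age and several members near the bacterial controls, the confidence intervals of the fit included 0 for most members. The exceptions were Samd9l, Irf9 and Ifit3.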
